A study of Sus scrofa with 9 samples.

Results

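The genes of nitrogen disposal were followed in liver RNA of Wujin piglets, a Chinese breed, on diets with different amounts of added iron. The 9 genes are CPS1, OTC, ASS1, ASL and ARG1, which encode the 5 enzymes of the urea cycle, NAGS and SLC25A15, which serve the cycle in the mitochondrion, ARG2, the second arginase, and GLUL, glutamine synthetase. The 9 members were chosen by symbol out of 25918 genes in the deposited table, with earlier results of these libraries known, so their values are a description and carry no test. All 9 were in the table and all 9 passed the filter on low values, a mean of at least 0.5 FPKM over the 9 libraries, as did 12584 genes in all. FPKM counts fragments per kilobase of transcript, scaled to the mapped fragments of the library, so levels of different genes can be set side by side per length.

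The low-iron group received a basic diet with 0 mg/kg of added iron, the control group 100 mg/kg and the high-iron group 200 mg/kg, given as iron glycinate, and the basic diet held iron of its own. The piglets were 35 days old at the start, were prefed for 5 days and fed for 30 days, and were housed singly. Each group has 3 liver libraries, 1 per piglet, from animals drawn at random in each group. The names used are the group with the number of the animal: low-iron 2, 3 and 7, control 4, 5 and 6, and high-iron 2, 7 and 8. The study used males and females, and the labels do not give the sex of an animal. The table holds no counts, so the number of fragments behind a single value is unknown, and its precision rests on the 3 libraries of a group. The read totals that the study gives for each library were not used here.

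The urea cycle turns ammonia from amino acid breakdown into urea, and it runs mainly in periportal hepatocytes. Carbamoyl phosphate synthetase (CPS1), switched on by the N-acetylglutamate that NAGS makes, and ornithine transcarbamylase (OTC) work in the mitochondrion, while argininosuccinate synthase (ASS1), argininosuccinate lyase (ASL) and arginase (ARG1) work in the cytosol. SLC25A15 carries ornithine and citrulline across the inner mitochondrial membrane. Ammonia that escapes the cycle is bound to glutamate by GLUL in the hepatocytes around the central vein. ARG1 needs manganese, and ARG2 is a mitochondrial arginase best known outside the liver.

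In the high-iron group ARG1 lay below both other groups, at 344 ± 96.0 FPKM (SD, n = 3) against 747 ± 165 under control feed and 715 ± 103 under low iron, with no overlap of single libraries. CPS1 and ARG2 also lay below every control library, whereas OTC, ASL, ASS1, NAGS, SLC25A15 and GLUL overlapped with control there. Between low iron and control all 9 genes overlapped.

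The stretches of 250 bases before the annotated start are shown for ARG1 and CPS1, the 2 cycle enzymes whose high-iron libraries lay below every control library, and for OTC, the mitochondrial partner of CPS1, whose groups overlapped. They were read 5′ to 3′ on the gene's strand from the RefSeq annotation and genome of Sscrofa11.1, which is the build the authors aligned to. ARG1 has an outer and an inner annotated start, and both are given. Capitals mark the motifs that were found among those searched.

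ARG1 outer start, minus strand, chr1:32028984-32029233: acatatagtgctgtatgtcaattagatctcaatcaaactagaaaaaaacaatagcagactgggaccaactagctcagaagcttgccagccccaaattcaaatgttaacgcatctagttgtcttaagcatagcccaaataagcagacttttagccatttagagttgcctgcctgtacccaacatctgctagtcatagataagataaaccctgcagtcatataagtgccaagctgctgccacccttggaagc

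ARG1 inner start, minus strand, chr1:32020569-32020818: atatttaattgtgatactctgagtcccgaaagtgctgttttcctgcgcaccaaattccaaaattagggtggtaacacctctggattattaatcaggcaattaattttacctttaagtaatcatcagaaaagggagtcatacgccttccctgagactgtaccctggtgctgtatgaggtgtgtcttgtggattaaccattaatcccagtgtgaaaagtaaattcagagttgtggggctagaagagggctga

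CPS1, plus strand, chr15:113209788-113210037: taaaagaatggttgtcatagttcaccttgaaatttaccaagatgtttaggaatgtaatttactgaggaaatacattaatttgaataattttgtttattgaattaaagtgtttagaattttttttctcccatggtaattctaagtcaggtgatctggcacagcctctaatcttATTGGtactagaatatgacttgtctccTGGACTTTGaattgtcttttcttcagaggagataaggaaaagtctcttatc

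OTC, plus strand, chrX:34322148-34322397: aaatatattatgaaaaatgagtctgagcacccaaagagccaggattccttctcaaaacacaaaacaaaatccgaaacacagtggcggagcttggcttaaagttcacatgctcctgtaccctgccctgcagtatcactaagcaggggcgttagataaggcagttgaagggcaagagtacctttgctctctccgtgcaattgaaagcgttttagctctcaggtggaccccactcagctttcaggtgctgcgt

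On both strands, 6 motifs were searched: TATAAA (the TATA box), CCAAT, TTNNGCAA (a C/EBP-like site), CAAAGNNCA (an HNF4-like site), ACANNNTGT (the inner part of a glucocorticoid receptor site) and ACGTG (the core of a hypoxia response element). In the CPS1 window, CCAAT on the minus strand began 78 bases before the start and CAAAGNNCA, also on the minus strand, began 51 bases before it. Of 20664 windows of this length, 32.0% held CCAAT and 4.27% held CAAAGNNCA, against 4 and 2 of the 9 members. The second member with CAAAGNNCA was NAGS. Its longest annotated coding transcript, of 1107 bases for 368 amino acids, holds no untranslated bases. The annotated start of NAGS may therefore not be the start of transcription, and its window may not be a promoter. ACGTG was held by 1 member, SLC25A15, and by 18.2% of all windows. TATAAA, TTNNGCAA and ACANNNTGT were in none of the 9 member windows and in 10.4%, 8.38% and 3.98% of all windows. Neither the ARG1 windows nor the OTC window held any of the 6. The CPS1 window had a GC content of 31.2%, the ARG1 windows 42.0% and 41.2% and the OTC window 47.2%, against a median of 57.2% over all windows.

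By level, ASS1 stood first in each group, with mean values of 1322, 1209.7 and 976 FPKM under low iron, control and high iron, and ranked 44 among the 12584 genes by its mean over the 9 libraries. CPS1 ranked 82 and ARG1 85, and in each group these 2 neighbours overlapped. OTC (rank 288) and ASL (rank 320) formed the next pair, again with overlap in each group. NAGS (rank 627), SLC25A15 (rank 630) and GLUL (rank 760) followed without a clear order among themselves. ARG2, at rank 2127, was the lowest member in each group. Only the order of overlapping neighbours changed between diets: ARG1 stood before CPS1 in the low-iron group and after it in the other groups, and SLC25A15 stood before NAGS in the low-iron group alone.

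**Figure D1:**
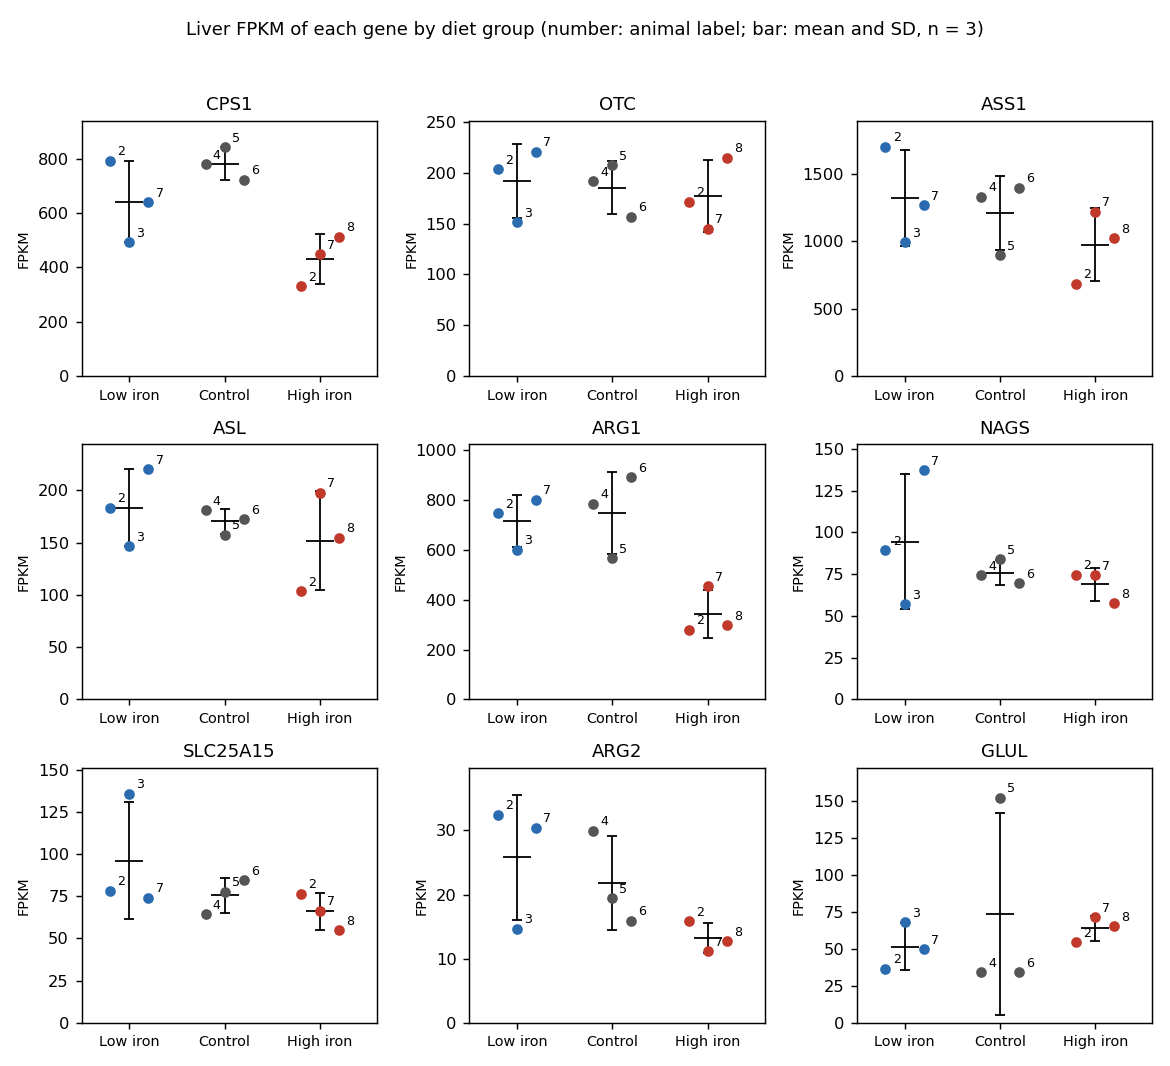
FPKM of the 9 genes (vertical axes, each starting at 0) by diet group; points are libraries with their animal number, and bars give the mean and SD of 3 libraries. The high-iron points of ARG1 lie below all points of the other groups, and control 5 stands alone at 152 FPKM for GLUL.

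CPS1 (chr15:113210038-113339086, plus strand) makes carbamoyl phosphate from ammonia and bicarbonate, the first step of the cycle. Its level was 792, 493 and 640.3 FPKM in low-iron 2, 3 and 7, was 780.1, 843 and 722 FPKM in control 4, 5 and 6, and was 331, 449 and 513 FPKM in high-iron 2, 7 and 8. The high-iron libraries lay below every control library, and low-iron 3 fell among them. The log2 fold change of the high-iron group was -0.88 (SE 0.24) against control and -0.57 (SE 0.24) against low iron, and that of low iron against control was -0.31 (SE 0.24).

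OTC (chrX:34322398-34391711, plus strand) joins carbamoyl phosphate to ornithine to give citrulline. It was the steadiest member, with levels of 203, 151 and 221 FPKM in low-iron 2, 3 and 7, of 192, 207 and 157 FPKM in control 4, 5 and 6, and of 172, 145 and 215 FPKM in high-iron 2, 7 and 8. The 3 groups overlapped, and the highest library was 1.52 times the lowest, against 3.19 times for ARG1 and 2.55 times for CPS1. The log2 fold change of high iron against control was -0.08 (SE 0.22), and its sign changed with the library left out. OTC lies inside RPGR, on the opposite strand, which reached at most 0.449 FPKM.

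NAGS (chr12:19170398-19173968, minus strand) supplies the activator of CPS1. Levels were 89.2, 57.1 and 137 FPKM in low-iron 2, 3 and 7, were 74.2, 84.0 and 69.4 FPKM in control 4, 5 and 6, and were 74.5, 74.3 and 57.6 FPKM in high-iron 2, 7 and 8. The low-iron libraries spanned the range of both other groups, and the high-iron group differed from control by -0.15 (SE 0.28) on the log2 scale.

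SLC25A15 (chr11:15494176-15551172, plus strand), the ornithine carrier, was at 78.2, 136 and 74.1 FPKM in low-iron 2, 3 and 7, at 64.3, 77.7 and 84.5 FPKM in control 4, 5 and 6, and at 76.5, 66.5 and 54.9 FPKM in high-iron 2, 7 and 8. Low-iron 3 stood above the other 8 libraries, in which the groups overlapped. The log2 fold change against control was -0.20 (SE 0.25) for high iron and 0.30 (SE 0.25) for low iron, and the latter was 0.02 without low-iron 3.

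ASS1 (chr1:270531434-270586364, plus strand) joins citrulline and aspartate, which brings the second nitrogen of urea into the cycle. It was at 1702, 995 and 1269 FPKM in low-iron 2, 3 and 7, at 1333, 898 and 1399 FPKM in control 4, 5 and 6, and at 687, 1221 and 1021 FPKM in high-iron 2, 7 and 8. The groups overlapped, with the lowest value in high-iron 2. High iron differed from control by -0.32 (SE 0.30) and from low iron by -0.44 (SE 0.30) on the log2 scale.

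ASL (chr3:16637481-16646869, plus strand) splits argininosuccinate into arginine and fumarate. Its levels were 183, 147 and 220.1 FPKM in low-iron 2, 3 and 7, 181, 158 and 173 FPKM in control 4, 5 and 6, and 104, 198 and 155 FPKM in high-iron 2, 7 and 8. High-iron 2 was the lowest library and high-iron 7 stood above all control libraries. The log2 fold change of high iron against control was -0.21 (SE 0.25), and without high-iron 2 it was 0.04.

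ARG1 (chr1:32006035-32028983, minus strand, 9 exons in its longest coding transcript, which codes for 322 amino acids) cuts arginine into urea and ornithine, the last step of the cycle. It was at 746, 599 and 799 FPKM in low-iron 2, 3 and 7, at 784 and 566 FPKM in control 4 and 5, at 890.1 FPKM in control 6, and at 279, 454 and 298 FPKM in high-iron 2, 7 and 8. Every high-iron library lay below the lowest of the other 6, control 5. The mean log2 level in the high-iron group was 2.19-fold lower than in control (log2 fold change -1.13, SE 0.26) and 2.12-fold lower than in the low-iron group (-1.08, SE 0.26), on the scale of log2(FPKM + 0.1). Low iron and control differed by -0.05 (SE 0.26).

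No single library made the direction of the ARG1 difference. Against control its log2 fold change lay between -1.35 and -0.99 when each library was left out in turn, and it came out below 2-fold without control 6 (-0.99) and without high-iron 2 (-0.996). Against low iron the range was -1.30 to -0.95, below 2-fold without low-iron 7 (-0.995), high-iron 2 (-0.95) or high-iron 8 (-0.996).

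ARG2 (chr7:91343987-91385911, plus strand) was far lower, at 32.5, 14.7 and 30.4 FPKM in low-iron 2, 3 and 7, at 29.98, 19.4 and 15.9 FPKM in control 4, 5 and 6, and at 15.8, 11.2 and 12.7 FPKM in high-iron 2, 7 and 8. High-iron 2 missed control 6 by a narrow margin, and low-iron 3 fell among the high-iron libraries. The log2 fold change of high iron was -0.68 (SE 0.33) against control and -0.89 (SE 0.33) against low iron. The first was -0.42 without control 4 and the second -1.26 without low-iron 3. The ratio of ARG1 to ARG2 within a library ran from 17.6 to 40.6 in the high-iron group, from 23.0 to 40.9 in the low-iron group and from 26.2 to 56.0 in the control group, with overlap throughout.

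GLUL (chr9:123751551-123762575, minus strand) was at 36.6, 68.0 and 49.8 FPKM in low-iron 2, 3 and 7, at 34.1 FPKM in control 4 and 6 each, at 152 FPKM in control 5, and at 54.5, 71.4 and 65.3 FPKM in high-iron 2, 7 and 8. Control 5 stood above the 8 other libraries, and the 2 other control libraries lay below every low-iron and high-iron library. The mean log2 fold change against control was 0.17 (SE 0.50) for high iron and -0.17 (SE 0.50) for low iron. Without control 5 these values were 0.89 and 0.55. For high iron the value was -0.18 without control 4, -0.19 without control 6 and -0.11 with the Y-linked gene EIF1AY as a covariate, and the mean FPKM was lower in high iron (63.7) than in control (73.4), so its sign is not settled. GLUL is the 1 member with near-identical sequence elsewhere in the genome, in 3 matches of at least 90% identity over at least 100 bases, the longest 1016 bases, so its reads could be split between copies, and its value is uncertain to that extent.

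**Figure D2:**
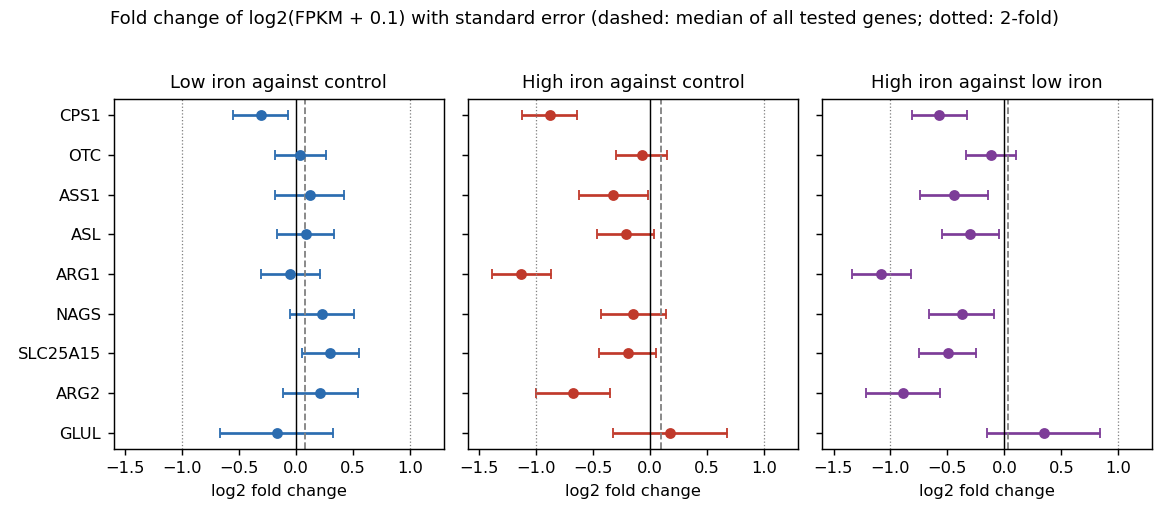
Log2 fold changes of the 9 genes with their standard errors in the 3 comparisons (horizontal axes), with the median of all tested genes dashed and 2-fold dotted. ARG1 is the member beyond 2-fold in the comparisons of high iron with control (-1.13) and with low iron (-1.08), while GLUL lies above 0 in both, with an error bar that crosses 0.

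The members are set here beside all tested genes. High iron against control gave a log2 fold change above 0 for 1 of the 9 members, GLUL, whose sign changed with the library left out, and for 65% of the tested genes, with medians of -0.21 for the members and 0.10 for all tested genes. Only 0.83% of tested genes had a more negative value than ARG1, 1.36% than CPS1 and 2.44% than ARG2. The high-iron libraries lay below all control libraries for 3 members, ARG1, CPS1 and ARG2, which 1.76% of the tested genes did, and no member lay above. A change of at least 2-fold with an unadjusted p under 0.05 in limma, the study's own thresholds, was met by 1 member, ARG1, which was lower, and by 1.57% of the tested genes in either direction and 0.294% in the lower one. CPS1 was the nearest member outside it, at 1.84-fold lower. The members were chosen with this contrast known, so these counts are printed without being read as a result.

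High iron against low iron also gave a value above 0 for GLUL alone, against 53.6% of the tested genes, with medians of -0.44 for the members and 0.03 for all tested genes. The groups did not overlap for 1 member, ARG1, which was lower, as were 5.13% of the tested genes. ARG1 was also the member that met the thresholds, as did 1.54% of the tested genes in either direction and 0.532% in the lower one, and ARG2, at 1.85-fold lower, came next. Low iron against control gave values above 0 for 6 of the 9 members and for 62.7% of the tested genes, with medians of 0.09 and 0.08. In that comparison 0 of the 9 members met the thresholds in limma, 0 had an unadjusted p under 0.05 and 0 had groups without overlap, against 0.882%, 3.68% and 8.34% of the tested genes. The comparisons share libraries, so that a control library enters both comparisons with control and a high-iron library both comparisons of high iron.

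Within a library, ratios between cycle enzymes do not depend on the library's scale. ARG1 over ASS1 was 0.357 ± 0.0585 in the high-iron group, 0.619 ± 0.0261 in the control group and 0.557 ± 0.104 under low iron, and each high-iron library lay below the 6 others. ARG1 over ASL was 2.30 ± 0.382, 4.36 ± 0.784 and 3.93 ± 0.258 in the same order, again without overlap. ARG1 over OTC overlapped, with 2.05 ± 0.947, 4.16 ± 1.47 and 3.75 ± 0.187, since high-iron 7 (3.13) stood above control 5 (2.73). ARG1 over CPS1 overlapped too, with 0.812 ± 0.217, 0.970 ± 0.282 and 1.14 ± 0.169, and so did ASS1 over ASL, with 6.47 ± 0.257, 7.05 ± 1.23 and 7.28 ± 1.81. So the ratio within the cytosolic pair that makes arginine overlapped between diets, while ARG1 stood lower against each of the pair in the high-iron libraries, with overlap against OTC and CPS1.

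In the mitochondrion, CPS1 over OTC was 1.93, 3.10 and 2.39 in high-iron 2, 7 and 8 and between 4.06 and 4.60 in the control libraries, without overlap. The low-iron libraries, between 2.90 and 3.90, overlapped the high-iron ones. The summed FPKM of the 5 enzymes was 2079.6 ± 459.7 in the high-iron group, 3094 ± 367 in the control group and 3053 ± 627 in the low-iron group. Of that sum ARG1 took 17.7%, 18.4% and 13.5% in high-iron 2, 7 and 8, from 21.2% to 26.6% in the control group and from 20.6% to 25.4% in the low-iron group, and OTC took 8.85% ± 2.64 in the high-iron group, 6.11% ± 1.54 in the control group and 6.32% ± 0.703 in the low-iron group. These ratios and shares use the same contrast as the members' values and are a description.

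**Figure D3:**
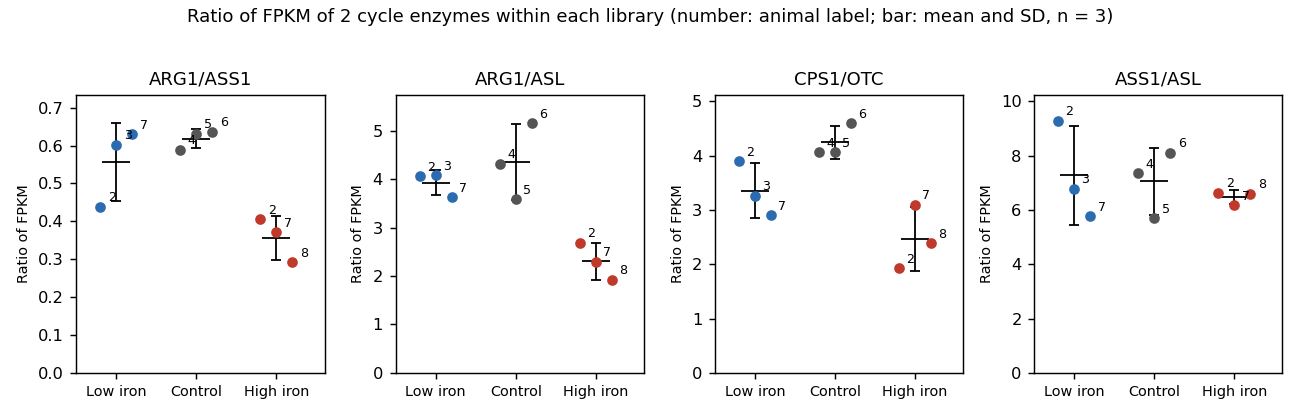
Ratio of the FPKM of 2 cycle enzymes within each library (vertical axes from 0) by diet group, with animal numbers and the mean and SD of 3 libraries. The high-iron points lie below both other groups for ARG1/ASS1 and ARG1/ASL, below control for CPS1/OTC, and among the others for ASS1/ASL.

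Libraries differed within each group. Low-iron 3 was the lowest library of its group for 7 of the 9 members and the highest for SLC25A15 and GLUL. High-iron 2 was the lowest of its group for 5 members, ARG1, CPS1, ASS1, ASL and GLUL. All genes of a library together summed to between 416922 and 456420 FPKM, with 16235 to 17817 genes above 0 in a library. The 9 members took from 0.427% to 0.621% of that sum in the high-iron libraries, from 0.708% to 0.817% in the control libraries and from 0.638% to 0.873% in the low-iron libraries.

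Bulk liver RNA holds all cells of the organ, so fewer cells of a type and less RNA per cell cannot be told apart. All 7 hepatocyte markers were found in each library. Their summed FPKM, mostly ALB, was 60849 to 74112 in the low-iron group, 61894 to 87030 in the control group and 59464 to 77223 in the high-iron group, with overlap. TAT, tyrosine aminotransferase, went apart from that sum, at 252, 243 and 179 FPKM in high-iron 2, 7 and 8 against 332, 672 and 331 FPKM in control 4, 5 and 6, without overlap, and at 418, 173 and 352 FPKM in low-iron 2, 3 and 7. Rescaling to these markers did not use that sum but the mean log2 level over 8 entries for the 7 markers, so TAT counted as much as ALB. After this rescaling, ARG1 differed by -1.06 (SE 0.29) from control and by -0.98 (SE 0.29) from low iron, and CPS1 by -0.82 (SE 0.24) and -0.47 (SE 0.24).

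Of 8 marker lists for other liver cells, the Kupffer cell list was the one whose high-iron sums lay above both other groups. The summed FPKM of 7 Kupffer cell and macrophage genes was 840.4 to 982 in the high-iron group, 652 to 813 in the control group and 717 to 817 in the low-iron group. Of these 7 genes, 5 lay above all control libraries, among them C1QA, a complement gene, at 215 to 291 FPKM against 139 to 204, whereas CD5L, the most abundant, did not. The share of all tested genes that lay above all control libraries was not counted, so this count has no baseline. In that comparison 65% of the tested genes had a log2 fold change above 0. Sums for stellate cells and fibroblasts (6 genes) were 138 to 269, 95.4 to 127 and 87.0 to 189 in the high-iron, control and low-iron groups. Those for endothelial cells (6 genes) were 207 to 246, 166 to 206 and 171 to 246, and for bile duct cells (4 of 5 genes in the table) 26.0 to 41.4, 10.8 to 29.5 and 12.9 to 34.2. T cell genes (5) summed to 18.2 to 35.5, 9.49 to 20.4 and 11.5 to 15.9, and B and plasma cell genes (5) to 15.3 to 27.9, 11.08 to 23.99 and 6.12 to 13.1. Neutrophil genes (6) gave 2.81 to 9.32, 2.14 to 3.46 and 4.46 to 7.33, and erythroid genes (5), mostly HBB, 351 to 839, 211 to 1445 and 476 to 2447. No marker in the table was at 0 in all 9 libraries. The part of these markers in the lower ARG1, CPS1 and ARG2 values was not tested.

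**Figure D4:**
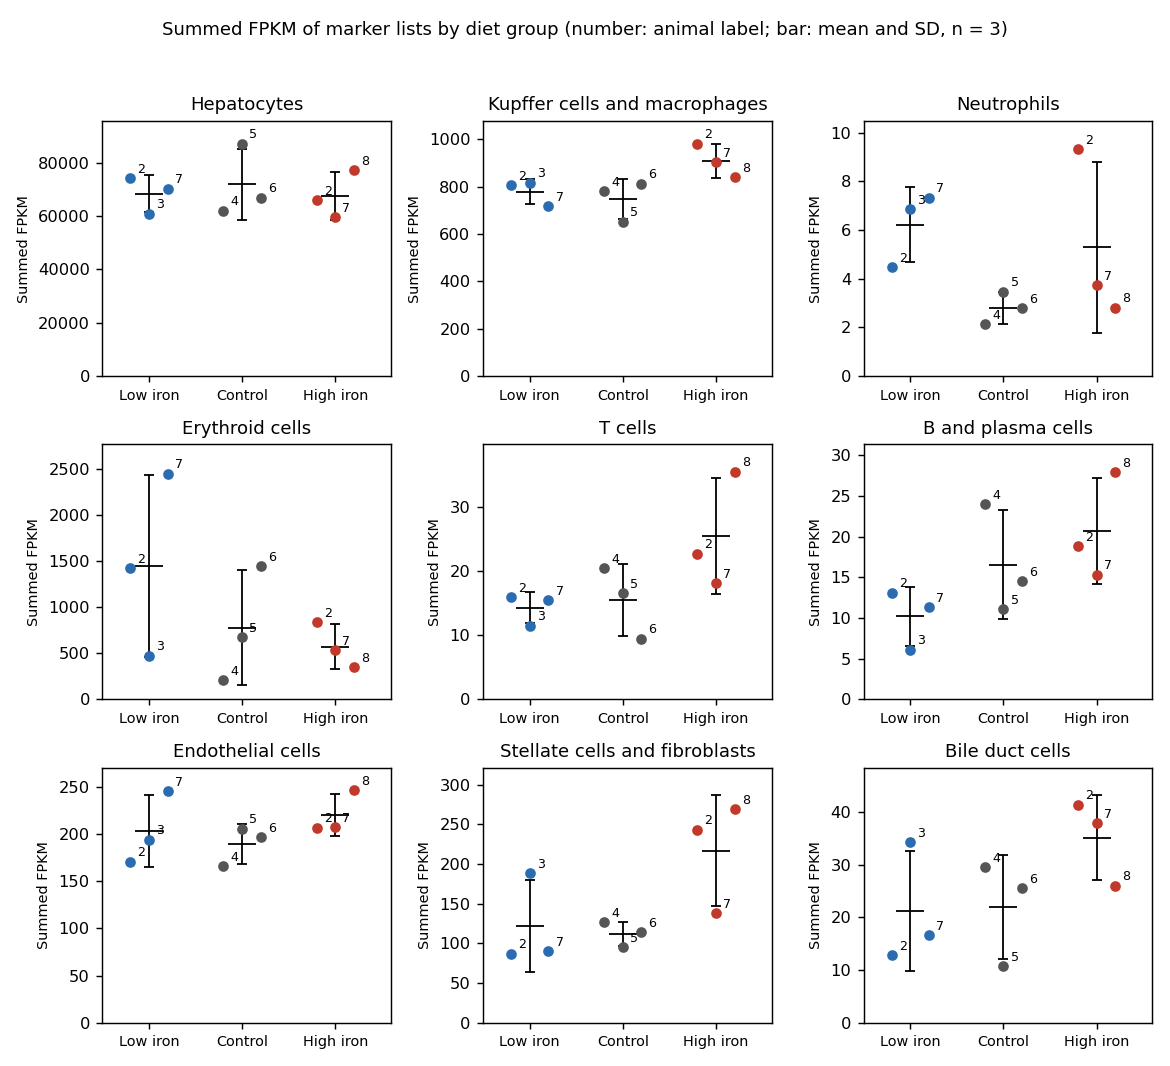
Summed FPKM of 9 lists of cell type markers (vertical axes from 0) by diet group, with animal numbers and the mean and SD of 3 libraries. Hepatocyte sums overlap between the groups, while the Kupffer cell sums of the high-iron libraries, from 840.4 upwards, lie above the others.

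EIF1AY was above 0 in low-iron 2 and 7, control 4 and 6 and high-iron 7 and was listed at 0 in the other 4 libraries, so that high iron held 1 library with it and each other group 2. ARG1, ASS1 and ASL were lower in the libraries at 0 in each of the 3 groups, which 9.02% of the tested genes were. For ARG1 the mean was 288 against 454 FPKM in the high-iron group, 566 against 837 in the control group and 599 against 773 in the low-iron group. With EIF1AY above 0 as a covariate, the log2 fold change of ARG1 in the high-iron group was -0.95 (SE 0.19) against control and -0.91 (SE 0.19) against low iron, in both cases under 2-fold. CPS1 and OTC did not keep a single direction between these libraries over the 3 groups.

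Around the cycle, 7 lists of related genes were examined, with 88 genes besides the members, of which 85 were in the table and 78 passed the filter. With limma, 0 of the 78 met the 2-fold and unadjusted p thresholds for low iron against control, 0 for high iron against control and 1 for high iron against low iron. These counts stand beside 0.882%, 1.57% and 1.54% of all tested genes. The numbers with an unadjusted p under 0.05 were 6, 5 and 12, beside 3.68%, 5.59% and 7.15% of all tested genes, and 0 had an adjusted p (Benjamini-Hochberg) under 0.05 in any comparison. Their median log2 fold changes were 0.08, -0.05 and -0.15, beside 0.08, 0.10 and 0.03 for all tested genes.

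The gene that met the thresholds was SLC1A2, a glutamate transporter that perivenous hepatocytes use to take up glutamate for glutamine synthesis. It was at 7.04, 5.03 and 7.26 FPKM in low-iron 2, 3 and 7, at 5.24, 8.87 and 0.436 FPKM in control 4, 5 and 6, and at 0.638, 2.09 and 2.78 FPKM in high-iron 2, 7 and 8. The high-iron libraries lay below every low-iron library, by -1.95 (SE 0.88) on the log2 scale with a limma p of 0.0488 and an adjusted p of 0.698, and control 6 lay below them all. The call was lost with a pseudocount of 0.01, without the filter, after rescaling to TPM, with EIF1AY as a covariate and without control 4.

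Genes that supply ammonia, glutamate and aspartate (16 tested) had 5 values above 0 for high iron against low iron and 6 against control. Of all tested genes, 53.6% and 65% were above 0 in these comparisons. The list medians were -0.23 and -0.08, beside 0.03 and 0.10 for all tested genes. The liver glutaminase GLS2 differed between high iron and control by -0.12 (SE 0.27). GOT1, the cytosolic aspartate aminotransferase, and GPT2, a mitochondrial alanine aminotransferase, had values of -0.57 (SE 0.36) and -0.74 (SE 0.48) in that comparison, and glutamate dehydrogenase (GLUD1) 0.03 (SE 0.25), all with overlap between the groups.

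Genes that use arginine, ornithine, proline and creatine (15 tested) gave medians of 0.05, 0.04 and -0.06 in the 3 comparisons and 0 calls in limma, with an unadjusted p under 0.05 for 0, 2 and 1 genes. SLC7A2, a carrier that brings arginine into the hepatocyte, was at 64.3, 43.7 and 51.4 FPKM in the high-iron libraries against 85.4, 145 and 67.0 in the control libraries, a difference of -0.84 (SE 0.28, limma p 0.0134, adjusted p 0.885). The high-iron libraries lay below all control libraries. PYCR1, of proline synthesis, differed by -0.87 (SE 0.39, limma p 0.0474, adjusted p 0.892). OAT, ornithine aminotransferase, differed from low iron by -0.97 (SE 0.43, limma p 0.0487, adjusted p 0.697), with overlap.

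Polyamine genes (10 tested), which start from the ornithine that arginase makes, had medians of 0.10, -0.04 and -0.10 and 0 calls in limma. For high iron against low iron an unadjusted p under 0.05 was found for ODC1, ornithine decarboxylase, at -0.57 (SE 0.22, limma p 0.0283, adjusted p 0.661) and for PAOX, a polyamine oxidase, at -0.73 (SE 0.31, limma p 0.0400, adjusted p 0.688). Manganese carriers (5 tested) had medians of 0.05, 0.08 and 0.03, and SLC39A14, which brings manganese and iron into hepatocytes, differed between high and low iron by -0.84 (SE 0.35, limma p 0.0375, adjusted p 0.686), with overlap. SLC40A1, of the same list, is ferroportin, the iron exporter that the study calls FPN1. It went the other way, and its high-iron libraries lay above all libraries of both other groups. It differed by 0.41 (SE 0.18, limma p 0.0429, adjusted p 0.892) from control. From low iron it differed by 0.37 (SE 0.18, limma p 0.0644, adjusted p 0.719).

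Of 16 regulators of urea cycle genes, all tested, 0 met the thresholds in limma, and 1, 1 and 3 had an unadjusted p under 0.05. KLF15, a glucocorticoid-induced factor that acts on amino acid breakdown, was at 27.0, 23.5 and 27.0 FPKM in the low-iron libraries, at 45.1, 39.5 and 50.3 in the control libraries and at 22.2, 21.5 and 29.3 in the high-iron libraries. Both other groups lay below all control libraries, which they share, by -0.79 (SE 0.18, limma p 0.00128, adjusted p 0.9998) for low iron and by -0.89 (SE 0.18, limma p 0.000548, adjusted p 0.767) for high iron. HNF4A, a factor that maintains hepatocyte gene expression, differed between high and low iron by -0.53 (SE 0.23, limma p 0.0468, adjusted p 0.697), without overlap, and CEBPB and FOXA3 had values of -0.67 (SE 0.29) and -0.53 (SE 0.22) with overlap. Besides SLC1A2, the genes of these lists are named because of their values or as the main enzymes of a step, a choice made after the values were seen, and none had an adjusted p under 0.05.

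**Figure D5:**
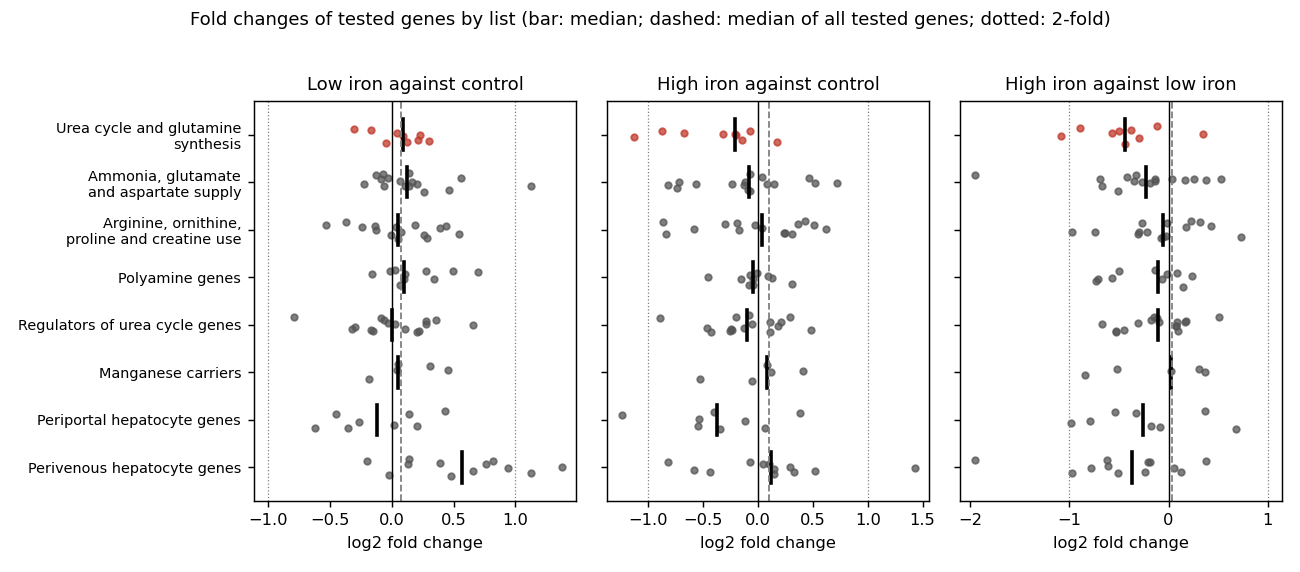
Log2 fold changes (horizontal axes) of each tested gene in the members' list and the 7 other lists for the 3 comparisons; black bars are list medians, the dashed line is the median of all tested genes and dotted lines mark 2-fold. The members' median is -0.21 for high iron against control and -0.44 for high iron against low iron, beside 0.10 and 0.03 for all tested genes.

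Over the 9 libraries, the mean log2 level of the 5 cycle enzymes was most like that of MBLAC1 (Pearson's r = 0.980) and TRPT1, a tRNA 2′-phosphotransferase (r = 0.969). MBLAC1 was at 5.24, 2.68 and 5.25 FPKM in low-iron 2, 3 and 7, at 5.02, 3.45 and 4.58 FPKM in control 4, 5 and 6, and at 1.42, 3.16 and 3.16 FPKM in high-iron 2, 7 and 8. Nearest to ARG2 were THOP1 (r = 0.895), EIF2B3 (r = 0.888) and SUN2 (r = 0.883), and nearest to GLUL were NAA50 (r = 0.941) and RASSF8 (r = 0.922). These values are a description over 9 libraries of 3 groups, which share their group differences and their scaling. They were the highest by choice, among tested genes with a symbol other than a placeholder that starts with LOC.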

How the data were processed

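Libraries were made from poly(A) RNA of the livers of 9 piglets, 3 per diet. The authors used HISAT2 for alignment to Sscrofa11.1 and StringTie for transcripts, and deposited 1 table of FPKM per gene and library. Fragments in that unit are scaled to transcript length and library size, so a large rise in a few abundant genes lowers all others. No read counts were used here, and a count model was therefore not run. A library preparation that keeps strand is not stated, so reads of overlapping genes on opposite strands cannot be told apart.

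Row numbers were read as serial numbers of genes in NCBI annotation release 106. All 20660 numbered genes then fell on protein-coding genes, against 15031 with the numbering shifted by 1. The other 5258 genes are new genes of the authors' assembly.

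The scale of analysis was log2(FPKM + 0.1), and 12584 genes whose mean reached 0.5 FPKM were tested with limma 3.58.1 in R 4.3.3, in 1 fit of the 3 groups with a trend and 6 residual degrees of freedom. Fold changes on this scale understate those of low genes. Genes were called at the study's thresholds, at least 2-fold and an unadjusted p under 0.05, and p-values were adjusted by Benjamini-Hochberg over all tested genes. The procedure was tested on simulated data, drawn for each gene independently from a normal distribution with its own mean and spread. Effects shared by the genes of a library were not simulated, so that test does not bear on them. Sequence matches were searched with blastn 2.17.0, and other steps used Python 3.11.15, numpy 2.4.6 and pandas 2.3.3. The 9 members, the 7 lists of related genes (ammonia, glutamate and aspartate supply, arginine use, polyamines, regulators, manganese carriers, periportal and perivenous genes) and the 9 lists of cell type markers were chosen with earlier results of these data known. The genes named are the members, called genes of the lists, the 3 genes nearest to each of 3 profiles, and others said to be picked after their values were seen. Genes without a symbol or with a LOC placeholder were left out of the search for nearest genes. Some genes under these rules are not reported here. Replicates are single piglets. Alternatives were other pseudocounts, filters and scalings, a fit of 2 groups, quality weights for the libraries, a block for the number of the animal, and leave-one-out fits. Rescaling to hepatocyte markers and EIF1AY as a covariate were added after the data were seen.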

Additional observations from a re-analysis of the deposited data

How the results depend on the processing

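Main counts of genes called were 111 for low iron against control (75 higher, 36 lower), 197 for high iron against control (160, 37) and 194 for high iron against low iron (127, 67). A pseudocount of 1 gave 34, 74 and 67, no filter 331, 504 and 458, array quality weights 171 for the first and 334 for the third. Leaving out 1 library gave 111 to 209, 190 to 296 and 186 to 333. The first passed 1.5 times the main count without low-iron 2 (186), control 5 (209) or control 6 (171), the second without control 4 (296), the third without low-iron 3 (333). Median-of-ratios scaling split the calls 53 and 47, 96 and 57, and 105 and 80, and quantile normalization 52 and 58, 82 and 59, and 91 and 92, while the median of all genes for high iron against control was 0.10 as deposited, -0.03 and -0.01 under these, and 0.16 after rescaling to hepatocyte markers. That rescaling split the calls of high iron against low iron 175 and 48.

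Members called numbered 0, 1 and 1. For high iron against control, median-of-ratios scaling gave 2 (CPS1 at -1.01), the EIF1AY covariate 0, and leaving out a library 0 to 2. For high iron against low iron, array quality weights gave 2 (ARG2 at -1.06), the EIF1AY covariate 0, rescaling to hepatocyte markers 0, and leaving out a library 0 to 2. In low iron against control, all alternatives run, leaving out each library included, gave 0. List genes called numbered 0, 0 and 1. Low iron against control had 1 each without the filter, in the fit of 2 groups and with array weights, and 0 to 3 without a library. High iron against control had 1 each under median-of-ratios scaling and the fit of 2 groups, and 0 to 4 without a library (4 without control 5). High iron against low iron had 0 with a pseudocount of 0.01, without the filter, after rescaling to TPM and with the covariate, 2 under median-of-ratios scaling, 3 with array weights and 0 to 3 without a library. The cause of these moves was not tested, except that no filter tested 20703 genes in place of 12584.

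ARG1 lay between -1.35 and -0.95 against control and between -1.30 and -0.91 against low iron over all alternatives, and CPS1 between -1.02 and -0.70 against control. Of 495 member values under the alternatives chosen at the start, 490 moved by less than the spread between replicates, as did 54 of 54 under those added later. Many of the 495 could not move, since another filter, a fit of 2 groups or leaving out a library of the group not compared returns the same fold change. Leaving out a library of a compared group moves its mean by only part of the spread. So these counts do not measure how stable the values are. GLUL moved to 0.89 and 0.55 against control without control 5. Animal numbers 2 and 7 stand in both the low-iron and high-iron groups, but deviations of same-numbered libraries correlated at only 0.02 and 0.02 over genes. Pairs of libraries with different numbers were not set beside these values, so whether a shared number stands for anything else cannot be told. With the number as a replicate block, 458 genes (268 higher, 190 lower), 2 members and 5 list genes were called for high iron against low iron, and CPS1 was at -0.89, OTC at -0.43 and SLC25A15 at -0.09. Only 4 libraries with a shared number enter that difference.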

Other observations

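Genes that mark the zones of the liver lobule were measured beside the periportal cycle enzymes and the perivenous GLUL. Of 12 perivenous genes tested, 10 had a log2 fold change above 0 for low iron against control, as did 62.7% of all tested genes, with medians of 0.57 and 0.08. With limma 0 of them met the thresholds, and 3 had an unadjusted p under 0.05, as did 3.68% of all tested genes. Those 3 were picked after their values were seen. They were AXIN2 at 0.95 (SE 0.31, limma p 0.0123), TBX3 at 0.82 (SE 0.26, limma p 0.0105) and ZNRF3 at 0.76 (SE 0.24, limma p 0.00903). Each had an adjusted p of 0.9998, and ZNRF3 overlapped with control. AXIN2 was at 2.40, 1.96 and 3.36 FPKM in low-iron 2, 3 and 7 and at 0.940, 1.85 and 1.13 FPKM in control 4, 5 and 6, so that low-iron 3 and control 5 were nearly level.

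For high iron against low iron, 3 of the 12 perivenous genes and 53.6% of all tested genes were above 0, with medians of -0.37 and 0.03. The high-iron libraries lay below all low-iron libraries for 4 of the 12, SLC1A2, AXIN2, TBX3 and ZNRF3, and for 5.13% of all tested genes. GLUL, of the same zone, had a value of 0.34 (SE 0.50) there. Low iron enters both comparisons. Of 8 periportal genes tested, 4, 2 and 2 were above 0 for low iron against control, high iron against control and high iron against low iron, with medians of -0.12, -0.37 and -0.25. Single genes of that zone varied widely between libraries, as did SDS, serine dehydratase, which was at 151 FPKM in low-iron 7 and at 15.1 FPKM in low-iron 3.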
